A study of Mus musculus with 6 samples.

Results

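The genes described here are 7 transcription factor genes at the centre of the circadian clock, namely the activators Arntl, Clock and Npas2, the REV-ERB repressors Nr1d1 and Nr1d2, and the ROR activators Rora and Rorb. They were picked by symbol from the 41388 genes of a lung RNA sequencing table, and all 7 were found. Lungs came from Zpbp2 KO mice, which lack exons 1 to 3 of Zpbp2 together with part of its promoter, and from WT C57BL/6J mice of the same colony. The KO allele had been kept for years on a C57BL/6J background, and the strain name, B6.129S7-Zpbp2tmZuk/Mmjax, records an origin in 129S7 mice, so DNA of that origin beside Zpbp2, where Nr1d1 also lies, cannot be told apart from the deletion itself. All mice were killed at ZT7, that is 7 h after lights on in a 12 h light and 12 h dark cycle. Sex and age of these 6 mice are not given in the sources used here, and no treatment is named. Each genotype had 3 libraries, called WT1 to WT3 and KO1 to KO3, each labelled with its own animal number. The comparison addresses whether a deletion near Nr1d1 goes with a change in the clock genes of the lung. With a single time of day, a shift in the timing of a rhythm and a change in its level cannot be told apart.

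In mammals, BMAL1 (the product of Arntl) pairs with CLOCK or with its relative NPAS2 and binds E-box sequences in DNA. These pairs switch on the genes of their own repressors and of the REV-ERB nuclear receptors. REV-ERB-alpha (Nr1d1) and REV-ERB-beta (Nr1d2) recruit corepressors to ROR response elements, where the ROR receptors activate, and Arntl, Clock and Npas2 are known targets of this second loop. In mouse lung the Arntl and Nr1d1 rhythms run nearly opposite to each other, with Nr1d1 high in the day.

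Total counts per library ranged from 59134950 to 71354388. Zpbp2 had 20, 15 and 7 counts in WT1, WT2 and WT3 and 1, 0 and 0 in KO1, KO2 and KO3, which matched the labels. KO2 and KO3 differed by 1.71 to 1.93 times the counting variance (from the median over genes) for genes with 20 to 20000 counts in the pair and by 3.35 times above that. For the other pairs within a genotype the ratio was 1.85 to 3.78 at 20 to 200 counts, where WT1 and WT2 were nearly as close, but 8.85 to 21.8 at 2000 to 20000 counts and 38.6 to 163 above that. Their counts were therefore summed and treated as 1 sample, leaving 3 WT and 2 KO samples. WT3 and KO1 stood apart through squamous epithelium transcripts, whose 6 listed genes reached 4212 and 7893 CPM (counts scaled to 1e6 per library) in them and 3.29 to 4.66 CPM elsewhere. The lung markers were high in all libraries. The 5 alveolar type 2 genes summed to 18962 to 19808 CPM in WT and to 27497 to 29107 CPM in KO. Of them 3 were called higher, against 1.38% of all genes, with an edgeR adjusted p of 0.0446 for Sftpc, Sftpb and Sftpa1 alike. Lamp3 and Abca3 were not called (edgeR adjusted p 0.102 and 0.454). With an offset for gene length and GC content no tested gene was called, these included. The 3 club cell genes, mostly Scgb1a1, summed to 27214 to 31947 CPM in WT and 36657 to 48528 CPM in KO. These sums did not overlap, nor did the libraries of 40.8% of all tested genes, while those of Scgb3a2 did. By edgeR 0 of the 3 were called. With the 6 libraries kept separate 2 were called higher, against 9.81% of all genes. The 6 adipocyte genes summed to 414 to 795 CPM in WT and 50.9 to 127 CPM in KO. The 5 cardiomyocyte genes summed to 1827 to 4711 CPM in WT and 1013 to 1187 CPM in KO. The part of these cell types in the results below was not tested. In bulk lung, fewer cells of a type and less RNA per cell cannot be told apart.

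Promoter windows from RefSeq (GRCm38.p6), 250 bases before to 50 after a start site, show sequence at the 5′ ends of the genes. They are shown for Arntl and Npas2, whose profiles over the libraries were alike, for Clock, the single member called, and for Nr1d1, the member closest to the deletion. Capitals mark a ROR response element, searched as TAGGTCA or TGGGTCA on both strands. The windows are chr7:113207261-113207560 (plus strand) for Arntl, chr1:39194022-39194321 (plus) for Npas2, chr5:76304743-76305042 (minus) for Clock and chr11:98775328-98775627 (minus) for Nr1d1.
Arntl: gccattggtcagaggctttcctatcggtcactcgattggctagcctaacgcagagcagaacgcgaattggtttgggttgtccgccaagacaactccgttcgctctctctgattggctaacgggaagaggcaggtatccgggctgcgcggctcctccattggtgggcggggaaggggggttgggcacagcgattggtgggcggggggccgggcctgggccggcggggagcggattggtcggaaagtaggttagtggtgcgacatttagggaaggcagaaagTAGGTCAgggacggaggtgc
Npas2: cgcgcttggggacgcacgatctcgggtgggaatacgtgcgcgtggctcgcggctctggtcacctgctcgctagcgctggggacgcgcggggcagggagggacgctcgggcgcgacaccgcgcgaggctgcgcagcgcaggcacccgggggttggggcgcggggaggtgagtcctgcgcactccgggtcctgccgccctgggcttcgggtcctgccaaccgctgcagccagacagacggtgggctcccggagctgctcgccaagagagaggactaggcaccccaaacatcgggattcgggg
Clock: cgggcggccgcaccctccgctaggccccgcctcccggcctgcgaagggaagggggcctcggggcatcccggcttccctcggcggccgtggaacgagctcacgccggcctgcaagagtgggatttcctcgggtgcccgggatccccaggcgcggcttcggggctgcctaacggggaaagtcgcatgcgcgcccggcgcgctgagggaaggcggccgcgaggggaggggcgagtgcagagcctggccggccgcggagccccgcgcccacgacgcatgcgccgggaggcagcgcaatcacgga
Nr1d1: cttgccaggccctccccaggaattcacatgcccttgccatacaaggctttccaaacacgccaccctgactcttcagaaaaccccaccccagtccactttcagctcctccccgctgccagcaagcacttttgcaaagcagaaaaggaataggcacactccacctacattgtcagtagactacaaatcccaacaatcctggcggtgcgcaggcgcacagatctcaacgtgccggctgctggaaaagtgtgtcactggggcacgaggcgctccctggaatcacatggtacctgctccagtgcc
The last 50 bases of the Nr1d1 window lie almost wholly upstream of the Nr1d1 gene as GENCODE M21 annotates it, while in the other windows they lie within an annotated transcript. All 7 members had at least 1 window, 11 in all. The single match to the ROR response element was at positions 281 to 287 of the second of the 2 Arntl windows, past the start site. Of all 32851 windows of this length, 6.45% held such a match. The canonical E-box CACGTG, found in 7.15% of all windows, was in none of the 11. The nuclear receptor half-site AGGTCA, which lies within TAGGTCA and was found in 16.3% of all windows, also occurred once in the Nr1d2 window and once in the third Clock window. The D-box TTANGTAA, found in 2.32% of all windows, occurred once, in the second Rorb window. These are matches of letters to the forms searched, and binding was not tested.

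KO was compared with WT with the edgeR quasi-likelihood test, with p-values adjusted over all 18660 genes tested and a call at an adjusted p of at most 0.05. All 7 members passed the filter on low counts. Of them 1, Clock, was called, in the lower direction, against 2.28% of all genes (1.38% higher and 0.906% lower in KO). By unadjusted p, 4 of the 7 were at or under 0.05, as were 27.3% of all genes, and 3 estimates were above 0, as were 52.2% of all. The KO libraries lay wholly outside the WT range for 5 of the 7, below it for Arntl, Clock, Npas2 and Rora and above it for Nr1d1. This was also so for 40.8% of all tested genes (20.0% above and 20.7% below), so the lack of overlap alone sets nothing apart here.

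**Figure D1:**
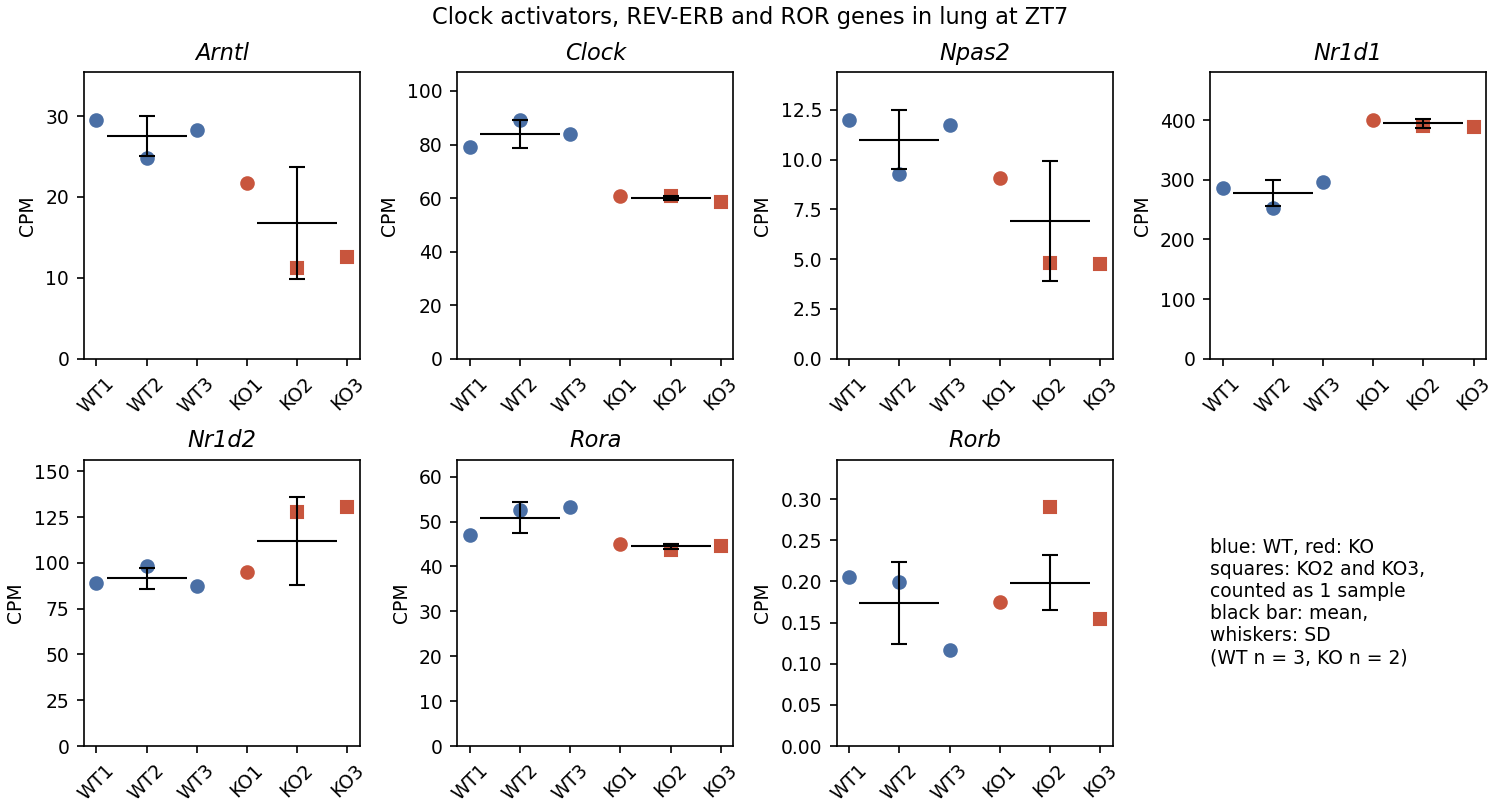
Level of each member (CPM, each axis from 0) in the 6 libraries, with WT in blue and KO in red; squares are KO2 and KO3, which count as 1 sample. Black bars are means with SD (WT n = 3, KO n = 2). Clock and Nr1d1 form 2 tight groups by genotype, while Arntl, Npas2 and Nr1d2 in KO1 lie nearer to WT than in KO2 and KO3.

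The 3 activators were all lower in KO by their estimates, and 1 of them passed the test. Clock (ENSMUSG00000029238, chromosome 5, 76209868 to 76304792, minus strand), which encodes a histone acetyltransferase partner of BMAL1, was at 78.9, 89.2 and 83.8 CPM in WT1, WT2 and WT3. In KO1, KO2 and KO3 it was at 60.6, 60.8 and 58.5 CPM. The KO libraries were close together and all lay below the WT range. WT averaged 84.0 ± 5.12 CPM (SD, n = 3) and KO 60.1 ± 0.704 CPM (SD, n = 2), 1.39-fold lower, with a log2 fold change of -0.48 (SE 0.06, edgeR adjusted p 0.0446). The call was lost without any one of the WT libraries or without KO1, with the edgeR exact test, and with an offset for gene length and GC content, under which the log2 fold change was -0.19 (adjusted p 0.191). With that offset on the 6 libraries kept separate it was -0.21 (adjusted p 0.0545).

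Arntl (ENSMUSG00000055116, chromosome 7, 113207465 to 113314126, plus strand), also called Bmal1, encodes the partner that CLOCK and NPAS2 share. It was at 29.5, 24.8 and 28.3 CPM in WT1, WT2 and WT3. KO1 had 21.7 CPM, and KO2 and KO3 had 11.3 and 12.6 CPM. Every KO library was below every WT library, but KO1 lay closer to the lowest WT library than to KO2 and KO3. WT averaged 27.5 ± 2.44 CPM (SD, n = 3) and KO averaged 16.8 ± 6.90 CPM (SD, n = 2). This difference, -0.71 on the log2 scale (SE 0.26), did not pass the edgeR test (adjusted p 0.167).

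Npas2 (ENSMUSG00000026077, chromosome 1, 39193731 to 39363236, plus strand), the CLOCK relative that can stand in for it, followed the same order. WT1, WT2 and WT3 had 12.0, 9.29 and 11.7 CPM, KO1 had 9.06 CPM, and KO2 and KO3 had 4.80 and 4.78 CPM. KO1 was just under WT2, the lowest WT library. The means were 11.0 ± 1.49 CPM (SD, n = 3) and 6.93 ± 3.02 CPM (SD, n = 2), with a log2 fold change of -0.67 (SE 0.30, edgeR adjusted p 0.228).

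The REV-ERB genes were both higher in KO by their estimates, and neither passed. Nr1d1 (ENSMUSG00000020889, chromosome 11, 98767932 to 98775333, minus strand), whose product represses Arntl, lies 209 kb from Zpbp2. It was at 286, 253 and 296 CPM in WT1, WT2 and WT3 and at 400.3, 389 and 388 CPM in KO1, KO2 and KO3. The genotypes did not overlap, and the KO libraries differed from each other by less than the WT libraries did. The estimate was 0.51 on the log2 scale (SE 0.08), or 1.42-fold higher, with an edgeR adjusted p of 0.0512. Nr1d1 shares 263 exon bases, 8.55% of its exon length, with Thra on the opposite strand, and the strand setting of the counting is not given in the sources used here, so whether reads there were told apart is not known. Thra, a thyroid hormone receptor gene, averaged 178 ± 5.32 CPM over WT (SD, n = 3) against 172 ± 12.5 over KO (SD, n = 2), a log2 difference of -0.04 (SE 0.07, edgeR adjusted p 0.718).

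Nr1d2 (ENSMUSG00000021775, chromosome 14, 18204054 to 18239127, minus strand), the REV-ERB-beta gene that overlaps Nr1d1 in function, was at 89.3, 98.2 and 87.6 CPM in WT1, WT2 and WT3. KO1 had 95.1 CPM, within the WT range, and KO2 and KO3 had 128 and 130.4 CPM, above it. The log2 fold change was 0.30 (SE 0.14, edgeR adjusted p 0.258). Thrb, a second thyroid hormone receptor gene, had an estimate of -0.30 on the log2 scale (SE 0.10, edgeR adjusted p 0.151).

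The ROR genes were not called. Rora (ENSMUSG00000032238, chromosome 9, 68653786 to 69388246, plus strand), which activates Arntl through the same elements that REV-ERB proteins occupy, was at 47.0, 52.5 and 53.2 CPM in WT1, WT2 and WT3 and at 44.9, 43.7 and 44.5 CPM in KO1, KO2 and KO3. The gap between the highest KO and the lowest WT library was smaller than the spread among the WT libraries. The estimate was -0.19 on the log2 scale (SE 0.07, edgeR adjusted p 0.155), and with the offset for length and GC content it turned to 0.087. Rorb (ENSMUSG00000036192, chromosome 19, 18930605 to 19111196, minus strand), known mainly from retina and brain, had 15, 14 and 7 counts in WT1, WT2 and WT3 and 11, 18 and 9 in KO1, KO2 and KO3. These counts were above the floor of 3 counts, but the genotypes overlapped, and the log2 difference of 0.21 (SE 0.37, edgeR adjusted p 0.765) was smaller than its error. At this depth no difference in Rorb was detected.

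**Figure D2:**
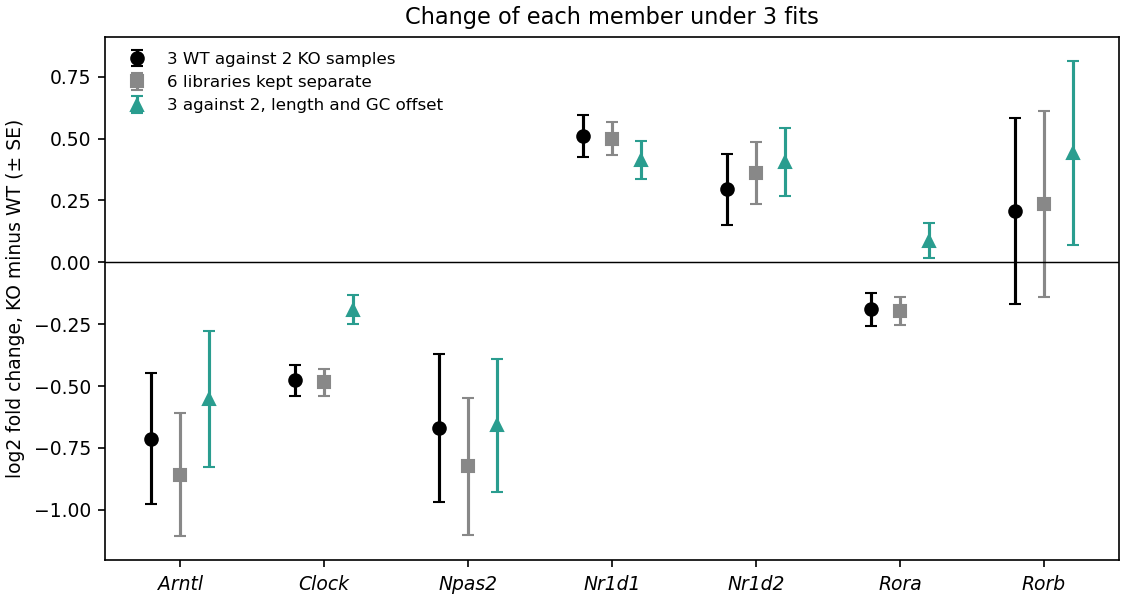
Log2 fold change of KO minus WT (± SE) of each member in the fit of 3 WT against 2 KO samples, with the 6 libraries kept separate, and with an offset for gene length and GC content. Nr1d1 stays between 0.41 and 0.51, Clock moves from -0.48 to -0.19 with the offset, and Rora crosses 0.

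Treating KO2 and KO3 as independent mice changed 1 call among the members. With the 6 libraries kept separate, 18.9% of 18014 genes were called, and so were Clock (log2 fold change -0.49, edgeR adjusted p 0.00674) and Nr1d1 (0.50, adjusted p 0.00887). Rora, Arntl, Npas2 and Nr1d2 had adjusted p values of 0.0566, 0.0588, 0.0854 and 0.0949 in that fit. Clock alone was called with DESeq2 size factors (2.29% of all genes called), with library size alone (1.64%) and with no filter (1.53%). Clock and Nr1d1 were called among genes with at least 10 counts in every library (5.54%), and Arntl, Clock and Nr1d1 by DESeq2 (22.3%). None of the 7 was called by the edgeR exact test (1.12%). With the 6 libraries kept separate and the length and GC offset, Nr1d1 and Nr1d2 were called (13.3%).

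Levels were compared between genes as CPM per kb of exon length, taken as the union of the exons of all annotated transcripts. In WT, Nr1d1 had the highest level of the 7 at 90.3 ± 7.33 CPM per kb (SD, n = 3), followed by Nr1d2 at 17.0 ± 1.05 and Clock at 6.12 ± 0.373. Rora at 3.89 ± 0.258 and Arntl at 3.66 ± 0.324 came next, and their WT libraries overlapped. Npas2 was at 2.30 ± 0.311 and Rorb at 0.0157 ± 0.00445 CPM per kb. The order was the same in KO, from 128 ± 2.62 CPM per kb (SD, n = 2) for Nr1d1 and 20.7 ± 4.43 for Nr1d2 through 4.38 ± 0.0513 for Clock, 3.41 ± 0.0448 for Rora, 2.23 ± 0.917 for Arntl and 1.45 ± 0.631 for Npas2 to 0.0179 ± 0.00303 for Rorb. The KO libraries of Arntl, up to 2.88 CPM per kb, overlapped those of Npas2, which ran from 0.997 to 1.89, while within each library Arntl was above Npas2.

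The members differed in how the KO libraries related to each other. For Clock, Nr1d1 and Rora, KO1 was at 1.02, 1.03 and 1.02 times the mean level of KO2 and KO3. For Arntl and Npas2 it was at 1.82 and 1.89 times that level, and for Nr1d2 at 0.737 times. Arntl, Npas2 and Nr1d2 in KO1 thus lay between WT and the other KO libraries or within the WT range. Other transcripts set KO1 apart from KO2 and KO3 as well. For the 4 erythroid genes the sum was 3478 CPM for KO1, 16944 for KO2 and 17634 for KO3, against 2163 to 4943 in WT. For the 8 immediate early genes it was 1249 CPM for KO1, 2195 for KO2 and 2196 for KO3, against 600.4 to 864 in WT. For the 4 hepatocyte genes it was 4.43 CPM for KO1, 37.6 for KO2 and 37.9 for KO3, against 1.05 to 1.44 in WT. The part of these differences in the levels of Arntl, Npas2 and Nr1d2 was not tested. Without WT3 and KO1, the libraries with squamous transcripts, 2 WT libraries were compared with KO2 and KO3 as a single KO sample, and the log2 fold changes were -1.19 for Arntl, -1.15 for Npas2 and 0.46 for Nr1d2 (edgeR adjusted p 0.00184, 0.0103 and 0.0172). That fit called 5 of the 7 members and 11.9% of all genes. It assumes that the lone KO sample varies as the WT libraries do.

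**Figure D3:**
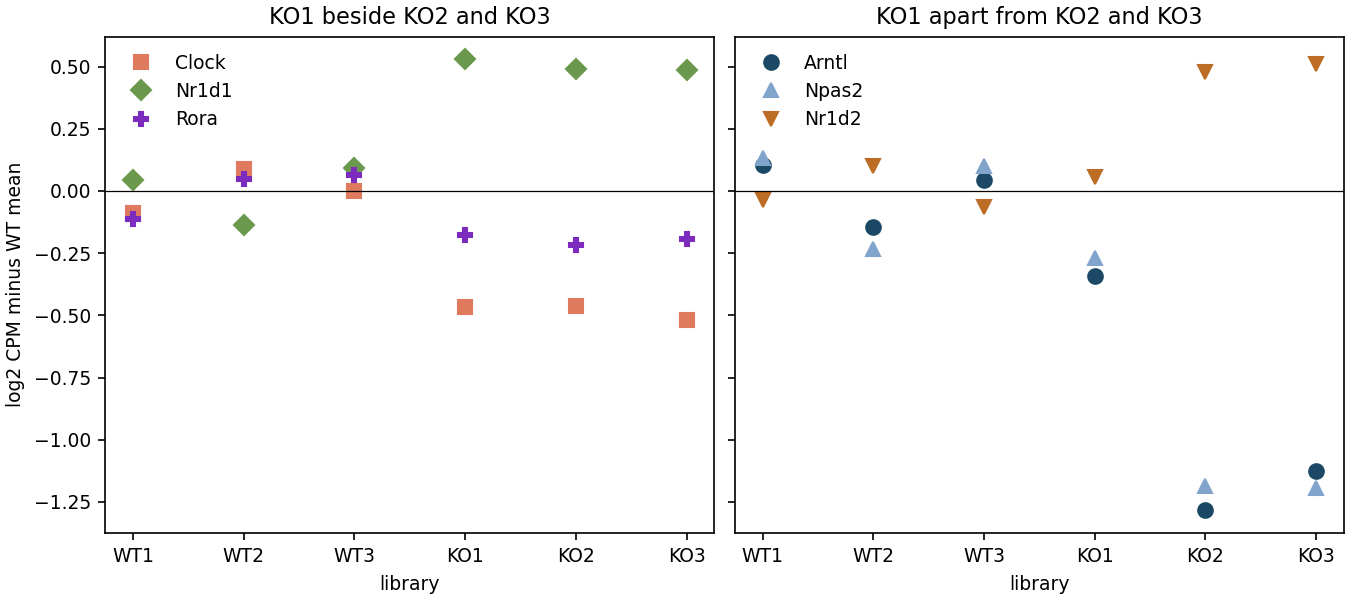
Log2 CPM of 6 members in each library minus the mean of the WT libraries. On the left, Clock, Nr1d1 and Rora take nearly the same value in KO1 as in KO2 and KO3; on the right, Arntl and Npas2 are at -0.34 and -0.27 in KO1 and at -1.28 to -1.13 in KO2 and KO3.

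Arntl and Npas2 stood in a like ratio in all 6 libraries. The log2 ratio of Arntl to Npas2 CPM was 1.30, 1.42 and 1.27 in WT1, WT2 and WT3 and 1.26, 1.23 and 1.40 in KO1, KO2 and KO3. The genotypes overlapped, with means of 1.33 ± 0.0780 (SD, n = 3) and 1.29 ± 0.0392 (SD, n = 2). Among 11004 genes with a mean of at least 10 CPM, the profile nearest to that of Npas2, a comparison chosen after the values were seen, was that of Arntl, with a root mean square difference of 0.0586 in log2 CPM, centred on the WT mean, over 5 samples. This measure describes 5 points that share 2 genotypes and is no test. The genes nearest to Arntl were Phkg1, Fbln2 and Coro6, at 0.130, 0.136 and 0.151. Npas2 itself was below 10 CPM on average and was not among the genes searched. The genes nearest to Nr1d1 were Ism1, Bspry and Tinagl1, at 0.0224, 0.0269 and 0.0325.

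The distance between Nr1d1 and Arntl was greater in KO. The log2 ratio of Nr1d1 to Arntl was 3.27, 3.35 and 3.39 in WT1, WT2 and WT3. KO1 had 4.21, KO2 5.11 and KO3 4.95. All KO libraries lay above the narrow WT range. This had to follow, since every KO library was above WT for Nr1d1 and below it for Arntl, and is no further evidence. The mean was 3.34 ± 0.0567 (SD, n = 3) in WT and 4.62 ± 0.582 (SD, n = 2) in KO, a difference of 1.28. The ratio is formed within a library and does not depend on the scaling of libraries, but it can depend on gene length and GC content. Taken from the fitted fold changes the difference was 1.22, and 0.97 with the offset for these. The log2 ratio of Nr1d1 to Rora, the repressor against the activator at the same elements, was 2.27 to 2.60 in WT and 3.13 to 3.16 in KO. Its lack of overlap likewise had to follow, since every KO library was below WT for Rora. Rora has the longer exons of the pair (13071 against 3077 bp), and the offset took the fitted difference of this ratio from 0.70 to 0.33. The genotypes overlapped in the other log2 ratios formed, namely Nr1d1 to Nr1d2 (1.36 to 1.75 in WT, 1.57 to 2.07 in KO), Arntl to Clock (-1.85 to -1.42 in WT, -2.43 to -1.48 in KO) and Clock to Npas2 (2.72 to 3.26 in WT, 2.74 to 3.66 in KO).

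The fold changes varied with gene length; the part of length in the members' values was not tested apart from GC content. Over all tested genes the fold change fell with exon length, with a Spearman rho of -0.33 over 18524 genes that share the same libraries. In the longest of 10 groups of genes of equal number, with at least 9195 bp of exons, the median log2 fold change was -0.18, and 82.9% of genes were below 0. Clock (13727 bp) and Rora (13071 bp) belong there. Clock was 0.29 below that median, at percentile 12.7 of the group, Rora at -0.19 was at percentile 48.7, and Rorb (11076 bp), with its few counts, was at percentile 96.2. Arntl (7523 bp) and Npas2 (4791 bp) were at percentiles 4.32 and 4.64 of their groups. Nr1d1 (3077 bp) and Nr1d2 (5409 bp) were at percentiles 92.2 and 91.9. The length and GC offset left 0 of the 7 members and 0% of all genes called by edgeR (DESeq2 without an offset called 3908). Of all genes, 3499 then had an unadjusted p up to 0.05. The log2 fold changes under it were -0.55 for Arntl, -0.66 for Npas2, 0.41 for Nr1d1 and 0.40 for Nr1d2.

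**Figure D4:**
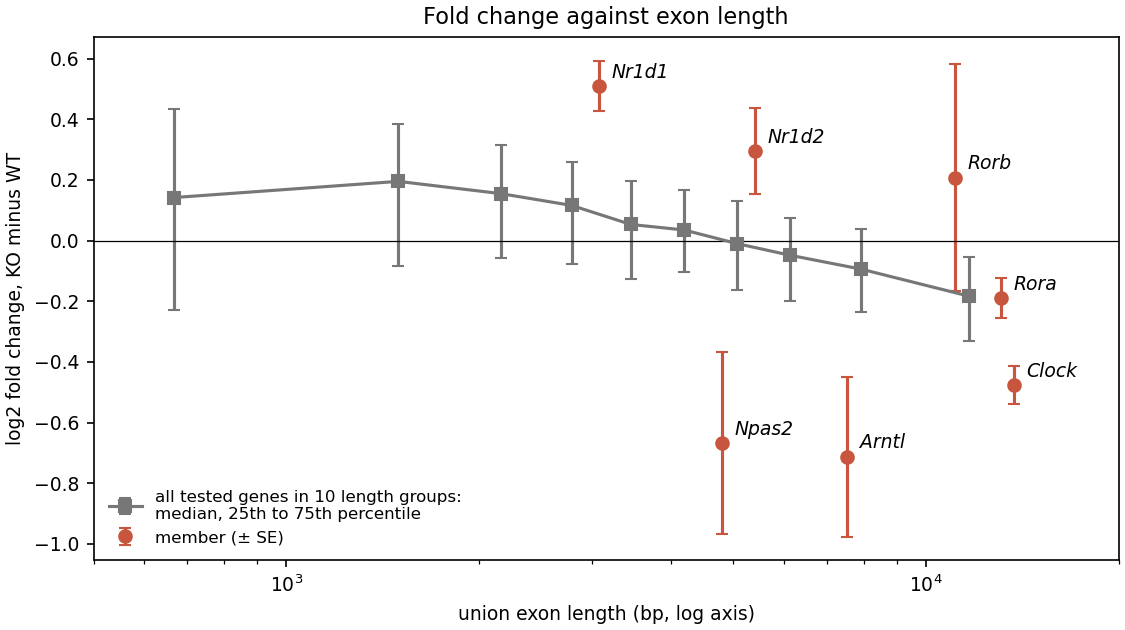
Log2 fold change of KO minus WT against union exon length (bp, log axis). Grey squares are medians of 10 groups of all tested genes of equal number with the 25th to 75th percentile, red points are the members (± SE); the grey medians fall from 0.20 in the second group to -0.18 in the longest, and Rora lies on them while Arntl, Npas2 and Clock lie below and Nr1d1 and Nr1d2 above.

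The other genes of the pathway were described from lists, beside a share of 2.28% called and a median log2 fold change of 0.02 over all genes. The 8 repressors that answer to the activators (Per, Cry, Ciart and Bhlhe genes) all had estimates above 0, with a median of 0.44, except that 1 of the 8 turned below 0 with library size alone or with the offset. By edgeR 0 of the 8 were called. Their most abundant members Per1 and Cry2 had log2 fold changes of 0.06 (SE 0.37, adjusted p 0.936) and 0.16 (SE 0.07, adjusted p 0.237). With the 6 libraries kept separate 3 of them were called, against 9.81% of all genes called higher, namely Ciart, Bhlhe40 and Bhlhe41, which are named after their values were seen. Of the 4 bZIP output factors 1 was called. Dbp, a direct target of the activators that drives clock output genes, rose by 1.34 on the log2 scale (SE 0.15, edgeR adjusted p 0.0446), WT averaging 72.1 ± 1.19 CPM (SD, n = 3) and KO 182 ± 44.8 (SD, n = 2). The offset left 1.19 (adjusted p 0.109), and the call was also lost without WT1, WT2 or WT3 (adjusted p 0.123 to 0.189). Its levels in KO1, KO2 and KO3 were 150, 215 and 211 CPM, and KO1 again lay between WT and the other KO libraries. Of the other bZIP factors, named after their values were seen, Tef and Hlf had estimates above 0, and Nfil3, which competes with them and is itself a REV-ERB target, had -0.45 (SE 0.12, adjusted p 0.102).

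Of the 11 kinases and ubiquitin ligases that act on clock proteins 0 were called, and their median was -0.01. The abundant members Huwe1 and Csnk1d had log2 fold changes of -0.37 (SE 0.09, adjusted p 0.0782) and 0.12 (SE 0.05, adjusted p 0.240). The offset left -0.02 for Huwe1 (adjusted p 0.904), and under it 9 of the 11 estimates were above 0, against 5 without it. The 6 corepressors through which REV-ERB proteins act had a median of -0.03 and 0 calls. Ncor1, a main one, had -0.42 (SE 0.07, adjusted p 0.0528), and -0.18 (adjusted p 0.208) under the offset. The 8 coactivators and coregulators of the activators and RORs all had estimates below 0, with a median of -0.37, and 1 was called. Nrip1, a nuclear receptor coregulator that mostly represses, fell by 0.44 on the log2 scale (SE 0.07, edgeR adjusted p 0.0496), WT averaging 40.3 ± 1.79 CPM (SD, n = 3) and KO 29.7 ± 1.96 (SD, n = 2). With the offset it was -0.19 (adjusted p 0.337), and the median of the 8 genes was -0.15. The Nrip1 call passed in 7 of 17 alternatives and was also lost with DESeq2 size factors, with no filter, with the exact test, and without WT1, WT2, WT3, KO1 or KO3. With the 6 libraries kept separate all 8 were called lower, against 9.07% of all genes, and with the offset added to that fit 1 of the 8 was.

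**Figure D5:**
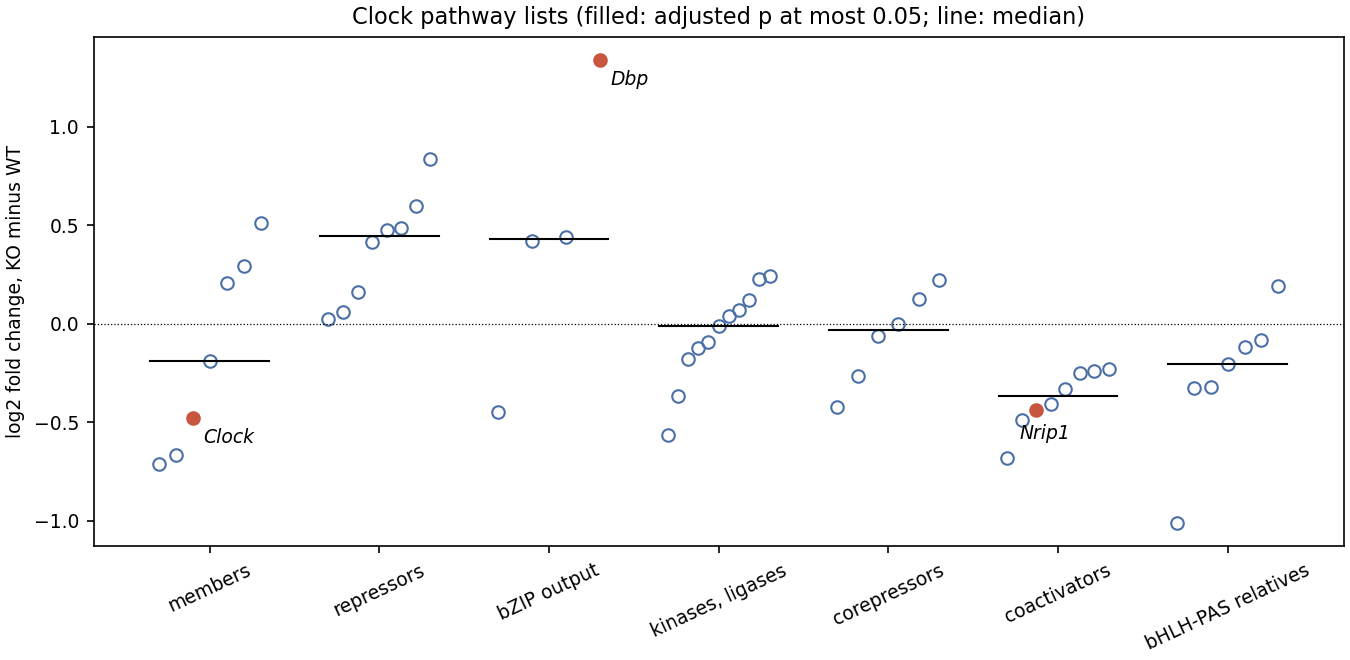
Log2 fold change of KO minus WT for the 7 members and 6 lists of clock pathway genes; each circle is a tested gene, filled circles have an adjusted p of at most 0.05 and lines are medians. Clock, Dbp and Nrip1 are the 3 filled circles, the 8 repressors lie above 0 (1 of them turns below with library size alone or the offset) and the 8 coactivators below.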

How the data were processed

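RNA was sequenced from 6 lungs, 3 of each genotype, grouped by the labels. The authors trimmed the reads, aligned them to GRCm38 with STAR and counted them per gene with HTSeq, and the deposited values are raw counts with no normalization. The submitters' processing notes name Trimmomatic 0.36, STAR 2.5.3a, Picard 2.9.0 and HTSeq 0.6.0. The annotation release and strand setting are not given in the sources used here. Here edgeR 4.0.16 in R 4.3.3 was used, with filterByExpr (minimum count 10), TMM scaling, glmQLFit and glmQLFTest, two-sided, with Benjamini-Hochberg adjustment over all tested genes. Tested on simulated data with the dispersion estimated for each gene, it recovered most of the largest changes simulated, a minority of those of middle size and none of about the size estimated for Clock and Nr1d1, and its calls held more unchanged genes than the threshold allows. CPM are counts per 1e6 of TMM-scaled library size, and SE is the estimate divided by the root of its F statistic. The p-values measure the spread between these samples.

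KO2 and KO3 were summed after a check of each pair against counting variance. Summing them departs from the study's 3 against 3 design. The members, lists and tests were chosen with earlier results of these data known. Named genes were the 7 members, called genes of the lists (or the 2 most abundant), Thra and Thrb, and the 3 nearest profiles to Nr1d1 and Arntl. Genes outside this rule are marked in the text as named after their values were seen, or are marker genes. Marker sums are given as ranges, and the called list genes Plin1 and Ncr1 are not described. One further gene that the rule names is not reported here. The 3 endothelial and 6 lymphoid genes were also summed, to 2125 to 2311 and 51.6 to 57.8 CPM in WT and 1989 to 2548 and 53.2 to 58.7 CPM in KO. Positions and exon lengths came from GENCODE M21 on GRCm38, which held 40340 (97.5%) of the gene identifiers, and promoter windows from RefSeq. Alternatives were DESeq2 1.42.0 and its size factors, library size alone, the exact test, other filters, an offset per library fitted with mgcv on length and GC content, a replicate block, and leaving out libraries. Counting error alone is covered by the floor of 3 counts, 0.0410 to 0.0514 CPM.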

Additional observations from a re-analysis of the deposited data

How the results depend on the processing

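Clock, Arntl and Npas2 stayed below 0 and Nr1d1 and Nr1d2 above 0 under all 17 alternatives, from -0.53 to -0.19, -1.21 to -0.55, -1.20 to -0.60, 0.41 to 0.55 and 0.24 to 0.49. Clock passed in 10 of them (adjusted p 1.72e-08 to 0.191) and Nr1d1 in 6 (4.74e-07 to 0.372). Rora turned to 0.087 with the length and GC offset and to 0.064 with that offset on the 6 libraries kept separate, an alternative chosen after seeing the data, and Rorb turned to -0.084 without KO replicate 2. The number of genes called, 426 in the fit of 3 against 2, and of members called, 1, moved as follows. They were 3402 and 2 with the 6 libraries kept separate, 3908 and 3 with DESeq2, 209 and 0 with the edgeR exact test, 937 and 2 with at least 10 counts in every library, 0 and 0 with the length and GC offset, 2381 and 2 with that offset on separate libraries, and 2256 and 5 without WT3 and KO1. With library size alone 306 genes were called, and the share higher in KO went from 60.3% to 38.2%. In the exact test that share was 30.1%, and in the offset fit on separate libraries 70.7%. Leaving out 1 library gave 0 to 418 genes and 0 to 1 members. It gave 0 genes by edgeR without WT1, WT2 or WT3, with 3346 to 4193 at an unadjusted p of at most 0.05, 17 without KO1, 355 without KO2 and 418 without KO3. Without KO1 the lone KO sample is assumed to vary like WT. With the replicate block on separate libraries 1157 genes (6.42%) and 2 members, Clock and Nr1d1, were called. Deviations of libraries with the same number correlated at -0.66, 0.69 and -0.78, and not every library correlated best with its own number. As KO2 and KO3 deviated almost alike, these correlations cannot tell whether the numbers pair the mice. The cause of these shifts was not tested. At the depth of these libraries only Rorb of the 7 members was near the floor.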

Other observations

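The relatives of the activators in the bHLH-PAS family were also measured. Of 8 listed genes 7 passed the filter, and Npas1, named after its values were seen, had 0 counts in every library. By edgeR 0 were called, and 6 of the 7 estimates were below 0 (5 with the length and GC offset), with a median log2 fold change of -0.20. Epas1, the hypoxia factor HIF-2-alpha that is abundant in lung endothelium, averaged 3252 ± 132 CPM over WT (SD, n = 3) against 2984 ± 202 over KO (SD, n = 2), a log2 difference of -0.12 (SE 0.07, edgeR adjusted p 0.348). Ahr, the receptor for dioxin and related ligands, had -0.32 (SE 0.14, adjusted p 0.207). Arntl2, the paralogue of Arntl, was at 3.02, 4.08 and 3.90 CPM in WT1, WT2 and WT3 and at 5.25, 3.13 and 3.08 CPM in KO1, KO2 and KO3. It is named after its values were seen. KO1 was the highest library and WT1 the lowest, and the genotypes overlapped.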
